A study of Mus musculus with 41 samples.

Results

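Microglia of Niemann-Pick type C (NPC) mice were compared with microglia of wild-type (WT) mice at 6 weeks of age, using the 4 NPC and 4 WT libraries of that age among the 41 libraries of the series. They are the libraries labelled with these genotypes, an age of 6 weeks and no treatment. NPC B and C were set apart because they were already known to be the libraries highest in astrocyte RNA. The WT mice were of strain balb/c. The NPC mice were of strain BALB/cNctr-Npc1m1N/J, in which every cell of the body carries the mutated Npc1 gene. Cerebellar cells bearing both CD11b and Tmem119 were sorted as microglia, and their polyadenylated RNA was amplified with SMART-seq v4 chemistry. The study followed both genotypes at 1, 3, 6 and 9 weeks, and the design counts mice as replicates.

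Npc1 is a membrane protein of the lysosome that hands cholesterol released from lipoproteins on to the rest of the cell, and without it cholesterol and sphingolipids pile up inside lysosomes. In the cerebellum the disease is known for the loss of Purkinje neurons and for the activation of microglia, the resident macrophages of the brain. Healthy microglia express a set of homeostatic genes, and around dying cells or lipid debris they take on a state called disease-associated, with genes of lipid handling, lysosomes and phagocytosis.

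Values are normalized counts, that is reads per gene divided by the size factor of the library, and are always given for replicates A, B, C and D in that order. A log2 change is NPC minus WT on the log2(value + 1) scale, with its standard error (SE), and folds carry a 95% interval. A gene is said to have risen or fallen where limma's test passed a Benjamini-Hochberg adjusted p of 0.05 over the 14046 genes tested. These libraries are bulk samples, in which fewer cells of a type and less RNA per cell cannot be told apart.

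The 8 libraries held 24.7 to 38.7 M reads (M, 1e+06), with 12801 to 13826 genes at 3 or more reads and 14.2% to 20.2% of the total in the 10 most abundant genes. Pairs of WT libraries correlated at r = 0.964 to 0.974 and NPC A with NPC D at 0.970, whereas NPC B and C correlated at 0.949 with each other and at 0.940 to 0.947 with NPC A and D. Between the groups, r ranged from 0.912 (NPC B with WT C) to 0.963 (NPC D with WT C). Astrocytes are glia that lie around microglia, and the astrocyte RNA for which NPC B and C were set apart came to 18386 and 17780 summed normalized counts over 13 markers, against 12630 and 10522 in NPC A and D and 10609 to 11823 in WT. Of the 13 astrocyte markers 2 rose, Gfap and Clu, and Clu was not called without NPC B or without NPC C (adjusted p = 0.0754 and 0.0631). The median log2 change of the 13 was 1.47, and 0.25 without NPC B and C, a drop that the choice of these libraries fixes. Choroid plexus markers reached 26034 and 14607 in NPC B and C, 7752 and 5084 in NPC A and D and 2086 to 2960 in WT, and of 7 tested 4 rose (median log2 change 2.15), against 0 without NPC B and C (1.40). Averaged, NPC B and C differed from the average of NPC A and D by transcript length as well. Over 12810 genes with a length, Spearman's rho of this log2 difference with length was -0.36. Over the 9460 of them with a mean of at least 100 in the 41 libraries, rho was -0.54. Among these 9460, the median log2 difference fell from 0.33 in the shortest of 4 equal groups of genes (371 to 2038 bases) to -0.35 in the longest (4648 bases and over). Between NPC and WT, 323 genes rose and 143 fell in the shortest group, with a median log2 change of 0.09, and 126 rose and 164 fell in the longest, with a median of -0.13. Without NPC B and C these medians were -0.05 and 0.06. Results are therefore also given without NPC B and C, and the part of the astrocyte and choroid plexus RNA in them was not tested.

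**Figure D1:**
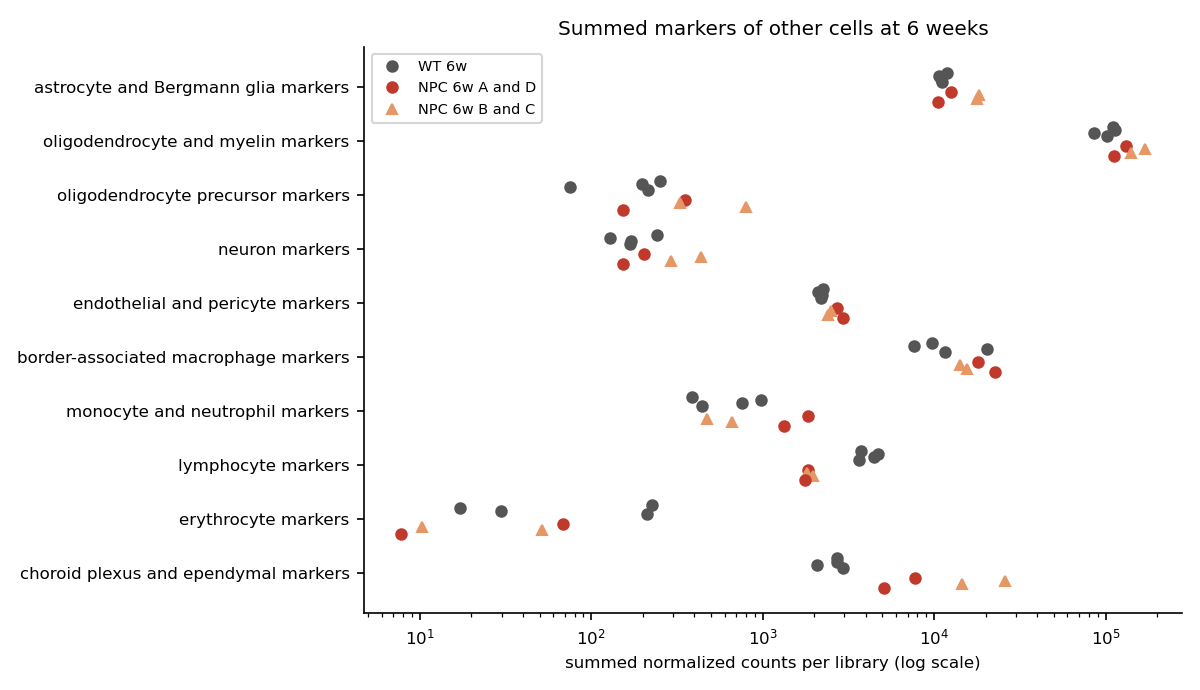
Summed normalized counts of marker genes of other cells in each library at 6 weeks, on a log axis, with WT libraries in grey, NPC A and D in red and NPC B and C as orange triangles. Astrocyte and choroid plexus sums are highest in NPC B and C, and lymphocyte sums are lower in the 4 NPC libraries (1773 to 1958) than in the 4 WT libraries (3665 to 4720).

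Choroid plexus sums were higher in every NPC library than in every WT library, NPC A and D included. Summed markers of the remaining cell types overlapped between WT and NPC, except those of lymphocytes and of endothelial cells and pericytes. Oligodendrocyte markers summed to 86024 to 113660 in WT and 112623 to 169534 in NPC, and 0 of 13 tested members passed limma's test. Border-associated macrophage markers summed to 7677 to 20339 in WT and 14158 to 22802 in NPC, where 3 of 11 rose and 2 fell (1 and 1 without NPC B and C). The overlap came through WT C, since WT A, B and D were at 9732, 7677 and 11608, below every NPC library. Mrc1, the mannose receptor of those macrophages, rose from 297, 305, 319 and 321 in WT to 830.0, 659.9, 671 and 859 in NPC (log2 change 1.27 ± 0.23, adjusted p = 0.00025). F13a1, a transglutaminase subunit of the same cells, fell from 57.4, 151, 67.4 and 52.8 to 10.5, 18.4, 10.8 and 3.91 (log2 change -2.83 ± 0.70, adjusted p = 0.00538), and Lyve1 was at 4.33, 6.62, 8.89 and 12.9 in WT and at 0 in every NPC library. The defining genes of these macrophages went both ways. Monocyte and neutrophil markers summed to 385 to 979 in WT and 473 to 1847 in NPC, highest in NPC A and D, and 1 of 12 rose and 1 fell, with a median log2 change of 1.67 (2.23 without NPC B and C). The monocyte receptor Ccr2 fell from 339.9, 519, 355 and 320.1 to 120.2, 145, 153 and 105 (log2 change -1.53 ± 0.26, adjusted p = 9.11e-05). The lymphocyte sum had a median of 4112 in WT and 1826 in NPC, without overlap. Of 4 members tested (median log2 change 0.52), only the interleukin 7 receptor Il7r was called. Il7r was at 3086, 3869.6, 3912 and 2976 in WT and 1166, 863, 851 and 1035 in NPC (log2 change -1.82 ± 0.21, adjusted p = 2.48e-07). It made up most of the sum in each WT library, but less than the other markers together in NPC B and C (sums 1819 and 1958). Endothelial and pericyte markers summed to 2103 to 2246 in WT and 2414 to 2935 in NPC, also without overlap, with 1 rise and 1 fall among 13 and a median log2 change of 1.13 (1.34 without NPC B and C). Oligodendrocyte precursor markers summed to 74.8 to 251 in WT and 152 to 805 in NPC, and 0 of 8 were called (median log2 change 1.02). The part of any of these cells in the results was not tested. Neuron markers summed to 128 to 240 in WT and 152 to 438 in NPC, and 6 haemoglobin genes were at 0 in all 8 libraries.

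Npc1 itself was checked first, since it is the gene the NPC strain carries mutated. Npc1 was at 5208, 5297, 6922 and 7386 in WT and at 745, 439, 291 and 698 in NPC, 0.083 times the WT level (95% interval 0.0593 to 0.116) (log2 change -3.59 ± 0.24, adjusted p = 1.75e-11). Every NPC library lay below every WT library, and the log2 change without NPC B and C was -3.08 (adjusted p = 2.63e-09). The markers of the sort were present in all libraries. Itgam, which encodes CD11b, was at 55649.6, 60135, 60420.3 and 65332 in WT and 53989, 41416, 38503 and 50126 in NPC (log2 change -0.40 ± 0.21, adjusted p = 0.203), and did not pass the test. Tmem119 fell from 309210.2, 318571, 251789.6 and 290166 to 169931, 170320.0, 169266 and 161398 (log2 change -0.80 ± 0.16, adjusted p = 0.000657), with no overlap between the groups. The growth factor receptor Csf1r, on which microglia depend, was at 746015, 747239.5, 638110.4 and 748329 and 605476, 603007, 611504 and 553735 (log2 change -0.28 ± 0.13, adjusted p = 0.154), and neither Csf1r nor the transcription factor Sall1 passed the test (adjusted p = 0.154 and 0.0636). For Itgam and Csf1r as well, each NPC library lay below each WT library.

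Across all genes, 1230 rose in NPC microglia at 6 weeks (8.76% of the 14046 tested) and 913 fell (6.5%), and the median log2 change was -0.02. Of these 2143 genes, 1829 had no overlap between the 4 NPC and the 4 WT libraries, and without regard to the test 1456 genes (10.4%) lay wholly higher and 1339 (9.53%) wholly lower in NPC. The rises reached further than the falls: 691 genes rose by at least 2-fold and 329 by at least 4-fold, whereas 249 and 89 fell by as much. Without NPC B and C, 522 genes rose (3.74% of 13958 tested) and 350 fell (2.51%), and 838 of the 2143 genes were called in the same direction, none in the opposite one. That comparison rests on 2 NPC libraries, and which calls were lost to the smaller number and which to the libraries themselves was not tested. The shares of all genes given here are the background for each list count below.

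**Figure D2:**
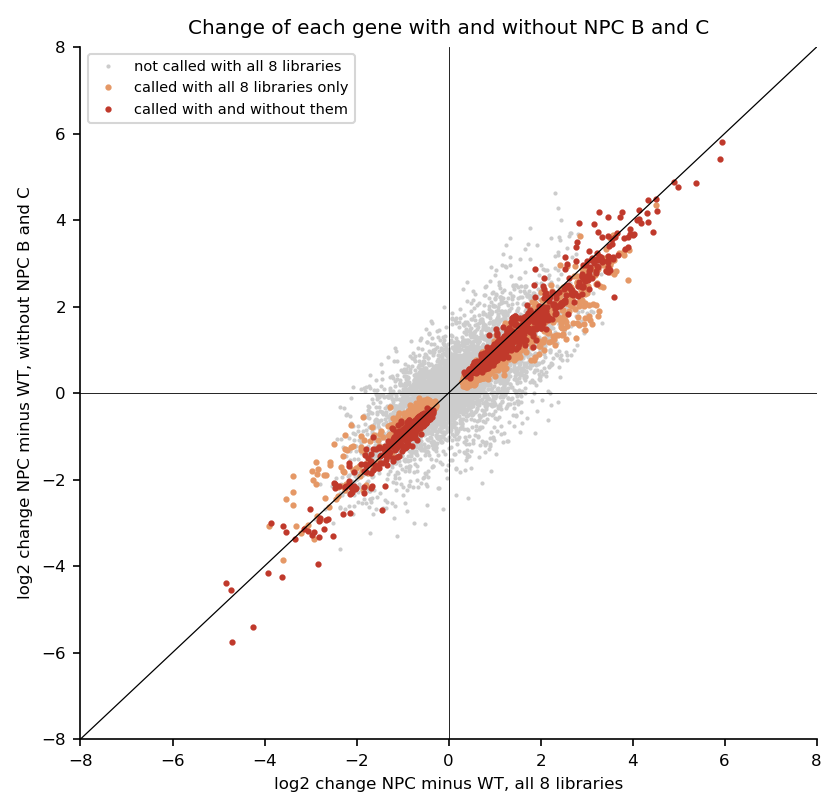
Log2 change of each tested gene (NPC minus WT at 6 weeks) with all 8 libraries on the x axis and without NPC B and C on the y axis, coloured by whether the gene was called with all 8 libraries and without those 2. No gene called with all 8 libraries changes its side of 0 without NPC B and C, and 838 of 2143 are called in both.

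Largest among the rises were Serpinb1c, a serine protease inhibitor, the complement protease C2, heparanase (Hpse), which cuts heparan sulfate chains, and lysyl oxidase (Lox), which cross-links collagen and elastin. Serpinb1c was at 6.49, 0, 3.7 and 7.54 in WT and 230.0, 339, 236 and 231 in NPC (log2 change 5.94 ± 0.72, adjusted p = 6.71e-07), and since the Serpinb1 genes are close copies of each other its reads may be split among them. C2 was at 4.33, 30.5, 23 and 23.7 in WT and 1017, 1358, 1609 and 552 in NPC (log2 change 5.89 ± 0.50, adjusted p = 1.14e-09). Hpse was at 46.5, 119, 65.2 and 73.3 in WT and 2899.9, 4422, 4185 and 1541 in NPC, 41.4-fold higher (95% interval 24.6 to 69.6). The 12 largest rises and the 12 largest falls were taken among genes without overlap between the groups. That condition fixed the separation of their NPC and WT libraries. NPC D was the lowest NPC library for C2 and Hpse. Lox rose from 47.6, 75.5, 24.4 and 35.6 to 1292, 1519.9, 1679.8 and 1053 (log2 change 4.99 ± 0.32, adjusted p = 1.28e-11). The sulfotransferase Chst2 rose from 106, 115, 113 and 259.8 to 2864, 3824, 2409 and 2155 (log2 change 4.31 ± 0.32, adjusted p = 1.16e-10), and Madcam1, a ligand of integrins on lymphocytes, from 6.49, 15.9, 6.67 and 2.16 to 210.1, 169, 173 and 129.9 (log2 change 4.51 ± 0.71, adjusted p = 2.91e-05). The same condition applied to both. Cpeb1, which binds polyadenylation elements of mRNA, rose by 4.13 on the log2 scale, and the other genes of the 12 largest rises (Oas1g, Oas3, Cxcl11, Gpnmb and Ch25h) belong to groups described with their own values. All 12 were also called without NPC B and C.

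On the lower side, the estrogen receptor Gper1 was at 75.8, 199, 149.6 and 61.4 in WT and 8.17, 6.9, 0 and 1.95 in NPC (log2 change -4.84 ± 0.92, adjusted p = 0.000345), and the sugar transporter Slc2a10 at 119, 72.8, 97 and 122 and 2.33, 12.6, 3.6 and 8.79 (log2 change -3.92 ± 0.62, adjusted p = 3.09e-05). The sulfotransferase Hs3st2, which modifies heparan sulfate, was at 232, 366, 224 and 189.7 and 47.9, 39.1, 1.2 and 18.6 (log2 change -3.85 ± 0.68, adjusted p = 0.000157). Several NPC libraries were near the limit of detection for these genes, since 3 reads correspond to 2.22 to 3.97 normalized counts here. Larger counts stood behind Gpr165, a G protein-coupled receptor, which fell from 15756, 15726, 14245 and 15989 to 2307, 1465, 1559 and 2526 (log2 change -3.01 ± 0.21, adjusted p = 4.84e-11), and Trp53i11, a p53-inducible gene, which fell from 1742, 2024, 1443 and 1760.1 to 239, 254, 269.8 and 228 (log2 change -2.80 ± 0.28, adjusted p = 3.47e-08). Wisp1, Lmtk2 and Atp8b1 are the members of the 12 largest falls that were not called without NPC B and C (adjusted p = 0.0916, 0.163 and 0.223). Lmtk2 was not called without NPC C alone either (adjusted p = 0.0522).

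**Figure D3:**
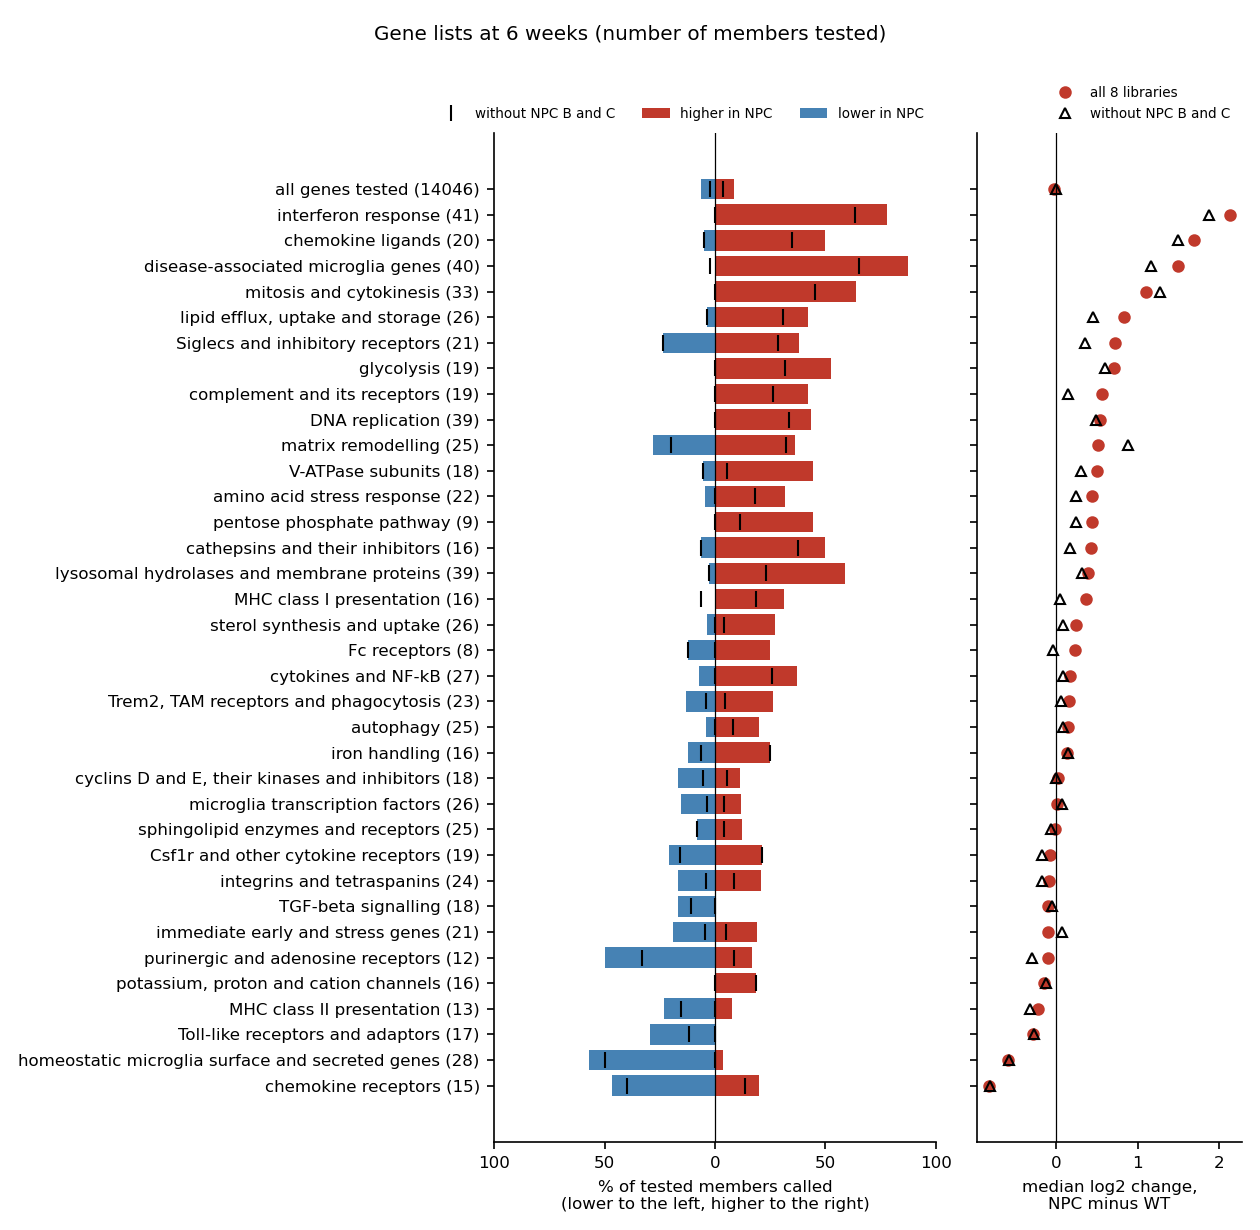
For each gene list, the percentage of tested members that fell (left, blue) and rose (right, red) at 6 weeks, with black ticks for the counts without NPC B and C, and in the second panel the median log2 change with all 8 libraries (red circles) and without those 2 (triangles). Interferon response genes stand at the top with a median of 2.13, followed by chemokine ligands (1.69) and disease-associated genes (1.49), and homeostatic genes and chemokine receptors at the bottom with -0.59 and -0.82, against -0.02 over all genes tested.

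Many homeostatic genes fell. Of 28 surface and secreted homeostatic genes, 16 fell and 1 rose, with a median log2 change of -0.59, and 14 fell without NPC B and C. P2ry12, the ADP receptor by which microglia sense injury, was at 336502, 361765, 218048 and 287259.8 in WT and 162304, 151393, 171687 and 158697 in NPC (log2 change -0.88 ± 0.16, adjusted p = 0.000176). Selplg, the ligand of P-selectin, was at 302642, 306233, 220577 and 260913 in WT and 104598, 109309.7, 104779 and 104312 in NPC (log2 change -1.35 ± 0.17, adjusted p = 1.23e-06). Serpinf1, a secreted serpin with neurotrophic activity, was at 18456, 16544, 9360.3 and 13668 in WT and 1601, 1608, 1641 and 1563 in NPC (log2 change -3.13 ± 0.18, adjusted p = 1.82e-12). For these 3 genes the NPC libraries lay close together and the WT libraries spread more widely, WT C being the lowest WT library. Cx3cr1, the receptor for the neuronal chemokine fractalkine, fell from 149004, 193531, 138213 and 143673 to 77123, 85889, 85272 and 86227 (log2 change -0.89 ± 0.17, adjusted p = 0.000303). Slco2b1, an organic anion transporter, and Gpr56, an adhesion receptor, fell by 1.03 and 0.66 on the log2 scale, and Gpr34, P2ry13, Cd34, Ecscr, Entpd1 and Siglech fell by 0.58 (Siglech) to 0.84 (Cd34). All of these held without NPC B and C. The rise of Fcrls, an Fc receptor-like gene of microglia, was smaller: it was at 34459.9, 40824, 28001 and 29589 in WT and 42428, 48271, 51178 and 41971 in NPC (log2 change 0.48 ± 0.14, adjusted p = 0.0147). That call was not kept without WT C, WT D or NPC C (adjusted p = 0.0634, 0.0546 and 0.0609). Cst3, Mertk, Olfml3, Golm1 and Pros1 are among the 11 members that did not pass, with log2 changes from -0.67 (Mertk) to -0.22 (Pros1).

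Of 26 transcription factors of microglia, 3 rose and 4 fell, beside 8.76% and 6.5% of all genes, with a median log2 change of 0.01. Hif1a, the factor that governs the response to low oxygen, rose from 5917, 6881, 4963 and 5891 to 13315, 14456, 17328 and 11927 (log2 change 1.26 ± 0.14, adjusted p = 2.14e-07). Irf5, a factor of interferon and cytokine genes, fell from 20329, 21685, 18110.4 and 18712 to 13755, 13673, 12840.4 and 14031 (log2 change -0.54 ± 0.10, adjusted p = 0.000183). Both moved in every NPC library and were called without NPC B and C. Mef2c, which holds microglia back from activation, fell from 14559, 15611, 15576 and 16886 to 10841, 9591, 10104 and 12388 (log2 change -0.55 ± 0.14, adjusted p = 0.00632; without NPC B and C, adjusted p = 0.154). Pparg, a lipid-sensing nuclear receptor, was at 0, 1.32, 2.96 and 0 in WT and at 29.2, 29.9, 31.2 and 7.81 in NPC. The WT values are under 3 reads except in WT C, where 3 reads correspond to 2.22 normalized counts. The factors that specify macrophages and microglia did not pass the test: Spi1 (PU.1) was at 14639.5, 15870.4, 10149 and 13671 in WT and 12215, 17205, 16207 and 12271 in NPC (log2 change 0.09 ± 0.14, adjusted p = 0.712), and the log2 change of Irf8 was -0.14. The lysosomal regulators Tfeb, Tfe3 and Mitf had log2 changes of 0.02, -0.12 and 0.24 (adjusted p = 0.947, 0.482 and 0.504).

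Receptors for nucleotides and growth factors were divided. Among 12 purinergic and adenosine receptors and enzymes, 6 fell and 2 rose (4 and 1 without NPC B and C). P2ry13 fell by 0.83 (log2), and the adenosine receptor Adora3 fell from 4650.4, 4168, 4159.9 and 4341 to 3142, 2635, 2487 and 2736 (log2 change -0.66 ± 0.12, adjusted p = 0.00019). P2ry2, a receptor for UTP and ATP, rose from 173, 250.3, 196 and 205 to 824, 1219.8, 727 and 648 (log2 change 2.02 ± 0.33, adjusted p = 5.89e-05), while the rise of the ATP-gated channel P2rx4 was not called without NPC C (adjusted p = 0.053). Within TGF-beta signalling, which maintains the homeostatic state, 3 of 18 genes fell and 0 rose, and 2 of 17 fell and 0 rose without NPC B and C. The co-receptor endoglin (Eng) fell from 5926, 6427, 7289 and 7446 to 3081, 2007, 2084 and 2518 (log2 change -1.50 ± 0.21, adjusted p = 5.09e-06), and the receptor Acvrl1 from 3493, 3203, 2727 and 3426 to 1874, 2114, 2314 and 1753 (log2 change -0.68 ± 0.14, adjusted p = 0.000758). Of 19 cytokine receptors and their ligands, 4 rose and 4 fell, and 4 and 3 of them without NPC B and C. Il10ra, the receptor of the anti-inflammatory interleukin 10, fell from 46332, 46905, 40065 and 46137 to 28544, 21627, 18875 and 27577 (log2 change -0.91 ± 0.14, adjusted p = 1.35e-05), and Ifngr1, a chain of the interferon-gamma receptor, from 41933, 42158, 30144 and 36182 to 20351, 21857, 20754 and 17655 (log2 change -0.89 ± 0.16, adjusted p = 0.00018). Csf1, the ligand of Csf1r, rose from 462, 605, 694 and 536 to 3008, 3510.0, 2632 and 2476 (log2 change 2.34 ± 0.27, adjusted p = 3.34e-07). Il2rg, the chain shared by several interleukin receptors, rose from 142, 375, 149 and 158 to 1029.7, 1469, 1161 and 434 (log2 change 2.31 ± 0.38, adjusted p = 5.48e-05), and Csf2ra and Il3ra rose by 1.22 and 1.92 on the log2 scale.

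**Figure D4:**
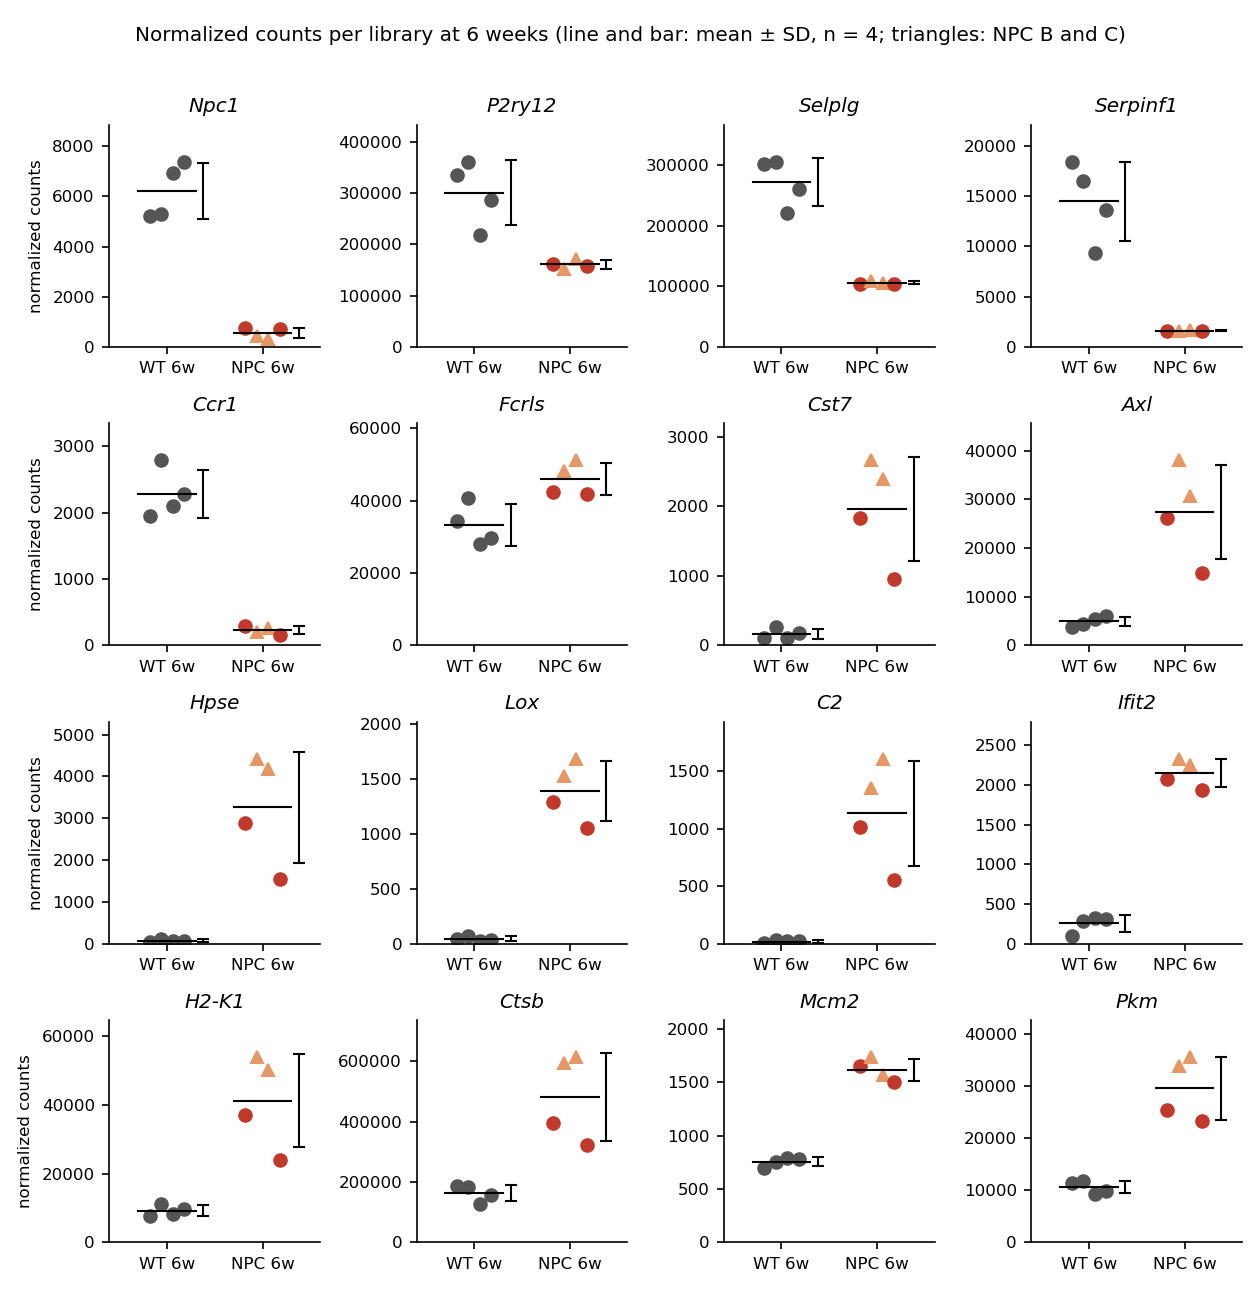
Normalized counts per library of 16 genes at 6 weeks, each panel with its own axis from 0, WT in grey and NPC in red with NPC B and C as orange triangles; lines and bars are the mean ± SD (n = 4). The NPC libraries lie wholly below WT for Npc1, P2ry12, Selplg, Serpinf1 and Ccr1 and wholly above WT for the other 11 genes.

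Most disease-associated genes rose. Of 40 members 35 rose and 0 fell (1 without NPC B), with a median log2 change of 1.49, and without NPC B and C 26 rose and 1 fell. Cst7, an inhibitor of lysosomal cysteine proteases, was at 110.4, 262, 105 and 178 in WT and 1827, 2665, 2400.4 and 958 in NPC (log2 change 3.58 ± 0.29, adjusted p = 6.9e-10). The phagocytic receptor Axl was at 3851, 4476, 5323 and 5987 in WT and 26202, 38061, 30609.9 and 14773 in NPC (log2 change 2.42 ± 0.23, adjusted p = 1.13e-08). Spp1, the secreted protein osteopontin, was at 622, 708, 730.2 and 629 in WT and 5611, 8018, 7683 and 3258 in NPC (log2 change 3.11 ± 0.46, adjusted p = 1.3e-05). In all 3 genes NPC D was the lowest NPC library and still well above every WT library. Igf1, an insulin-like growth factor, rose from 41.1, 92.7, 66.7 and 55 to 579, 849.6, 927 and 461 (log2 change 3.45 ± 0.40, adjusted p = 3.15e-07), and the lysosomal glycoprotein Gpnmb from 4.33, 37.1, 15.6 and 24.8 to 413, 439, 872 and 124 (log2 change 4.45 ± 0.79, adjusted p = 0.000167). Lyz2, the macrophage lysozyme, rose from 9615, 10979.7, 7368 and 9991 to 45452, 60675, 44149 and 41069.5 (log2 change 2.33 ± 0.29, adjusted p = 9.54e-07). The groups did not overlap for any of these genes. Fam20c, a kinase of secreted proteins, rose by 2.33 on the log2 scale, the galectin Lgals3 by 2.60, the integrin chain Itgax (CD11c) by 1.63, the beta-glucan receptor Clec7a by 1.66, the tetraspanin Cd63 by 1.89, the pyrophosphate transporter Ank by 1.33, Cd83 by 1.17 and the adhesion molecule Cadm1 by 1.16. These calls were kept without NPC B and C.

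Apoe, the lipid carrier of the brain, was at 251132, 300879, 202047 and 263409 in WT and 677278, 857569, 596099 and 774035 in NPC (log2 change 1.51 ± 0.41, adjusted p = 0.0101). Every NPC library lay above every WT library, but the call was not kept without NPC B and C (log2 change 1.52, adjusted p = 0.0798). Astrocytes also express Apoe. Of the NPC libraries Apoe was highest in NPC B, which also had the highest astrocyte sum, and lowest in NPC C, which had the next highest, and the part of astrocyte RNA in this rise was not tested. Cd9, Cd68 and B2m rose by 1.04, 0.71 and 0.98 on the log2 scale and were not called without NPC B and C either (adjusted p = 0.175, 0.137 and 0.2). Trem2, the receptor that launches the second step of this state in amyloid models, was at 52688, 58472, 41550.1 and 52955 in WT and 49381, 65633, 67693 and 48619 in NPC, and the groups overlapped (log2 change 0.16 ± 0.17, adjusted p = 0.573). Its partner Tyrobp was at 24983, 25817, 14862 and 17719 and 25152, 48942, 51421 and 26411, high in NPC B and C and within the WT range in NPC A and near it in NPC D (log2 change 0.82 ± 0.26, adjusted p = 0.029). The rise of Tyrobp was not called without WT C, WT D, NPC B or NPC C (adjusted p = 0.111, 0.0811, 0.125 and 0.134). Among 23 genes of Trem2 and TAM receptor signalling and phagocytosis, 6 rose and 3 fell. The count of rises was 3, 2, 1, 1 and 3 without WT A, WT C, WT D, NPC B and NPC C, and Axl is the member that rose without NPC B and C. Cd47, the signal against being eaten, fell from 5726, 6251, 4624 and 5462 to 3907, 3826, 3799 and 3549 (log2 change -0.54 ± 0.11, adjusted p = 0.000534), also without those libraries.

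Genes of the lysosome, the organelle that Npc1 belongs to, rose in part. Among its proteases and their inhibitors, 8 of 16 rose and 1 fell, and 6 rose without NPC B and C. Cathepsin B (Ctsb), a cysteine protease, was at 187325, 182296, 128624 and 155694 in WT and 394127, 595758, 613033 and 323156 in NPC (log2 change 1.52 ± 0.16, adjusted p = 1.04e-07). Cathepsin D (Ctsd), the main aspartic protease, was at 1036304, 1046768, 756008 and 918746 in WT and 1527001, 2019337, 2007516 and 1275282 in NPC (log2 change 0.85 ± 0.13, adjusted p = 1.5e-05). NPC B and C were the highest libraries for both and NPC D was the lowest of the NPC group, above all WT libraries. Ctsz rose from 83060.3, 84469, 55319 and 73529 to 119924, 185619, 175098 and 107780.4 (log2 change 0.97 ± 0.15, adjusted p = 3.47e-05), Ctsl by 0.88 on the log2 scale, and Ctse, an aspartic protease of endosomes, by 2.00. Cystatin B (Cstb) and Ctsa rose by 1.16 and 0.59 with all 8 libraries and were not called without NPC B and C (adjusted p = 0.307 and 0.0746). Ctss, Ctsc, Ctsf and Ctsh were not called (log2 changes 0.27, -0.22, -0.03 and -0.40). The fall of legumain (Lgmn), by 0.36 on the log2 scale, was not called without WT A, WT B, NPC A or NPC D.

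Of 39 hydrolases and membrane proteins of lysosomes, 23 rose and 1 fell, with a median log2 change of 0.39, and 9 rose without NPC B and C. Npc2, the soluble partner that passes cholesterol to Npc1, rose from 15549, 16387, 11913 and 14609.7 to 26537, 36307, 36576 and 23317 (log2 change 1.05 ± 0.16, adjusted p = 1.43e-05). Lamp1, a membrane glycoprotein of the organelle, rose from 67775, 43013, 50303 and 63438 to 102963, 124479, 121491 and 88744 (log2 change 0.97 ± 0.12, adjusted p = 1.68e-06), and progranulin (Grn) from 130338, 157138, 118640.3 and 133804 to 230152, 287714, 273443 and 194279 (log2 change 0.86 ± 0.12, adjusted p = 6.4e-06). Both Npc2 and Grn were higher in each NPC library than in any WT library. The galactosidases Galc and Glb1 rose by 0.86 and 0.78 on the log2 scale, the mannosidase Man2b1 by 0.74, the sphingolipid activator Gm2a by 0.72 and the sialidase Neu1 by 0.39. Acid lipase (Lipa), which frees cholesterol from its esters, rose from 8278, 8323, 6351 and 8561 to 12005, 14178, 15466 and 9358 (log2 change 0.68 ± 0.16, adjusted p = 0.00278), and prosaposin (Psap) by 0.64; neither was called without NPC B and C (adjusted p = 0.175 and 0.159). The single fall was that of the phospholipase Pla2g15, from 53578, 52393, 39942 and 51242 to 32356, 29696, 32273 and 27495 (log2 change -0.69 ± 0.11, adjusted p = 5.99e-05). Acid sphingomyelinase (Smpd1) was at 4609, 4922, 3225 and 4603 in WT and 3195, 4004, 3844 and 2749 in NPC, with overlap (log2 change -0.33 ± 0.17, adjusted p = 0.19), and acid ceramidase (Asah1) and the membrane protein Scarb2 had log2 changes of 0.01 and 0.18.

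Subunits of the V-ATPase, the proton pump that acidifies lysosomes, gave a count that varied with the libraries. Of 18 tested subunits 8 rose and 1 fell, with a median log2 change of 0.50. The count of rises was 4 without WT C, 5 without NPC B, 5 without NPC C and 1 without NPC B and C together, beside 3.74% of all genes. That 1 subunit was Atp6v1a, the catalytic subunit, at 3647, 4178, 2873 and 3673 in WT and 7012, 8433, 9036 and 6277 in NPC (log2 change 1.09 ± 0.12, adjusted p = 2.26e-07). Its NPC libraries were all higher than its WT libraries. Atp6v0a2, a membrane subunit of endosomes and the Golgi, fell from 15240.3, 14739, 15881 and 16540.1 to 11531, 9714, 9879 and 10209 (log2 change -0.60 ± 0.13, adjusted p = 0.00146). Of 25 autophagy genes 5 rose and 1 fell, beside 8.76% and 6.5% of all genes. Without NPC B and C 2 rose, beside 3.74% of all genes. The rises numbered 3 without WT C, without NPC B or without NPC C, and the fall, of Atg9a, was called only without WT D or NPC A among single omissions. Optineurin (Optn), an autophagy receptor, rose from 132, 195, 133 and 185 to 595, 860.0, 617 and 496 (log2 change 1.98 ± 0.30, adjusted p = 1.47e-05) and was called under every omission. Sqstm1 (p62), Gabarap and Becn1 rose by 0.63, 0.68 and 0.67 on the log2 scale and were not called without NPC B and C (adjusted p = 0.0947, 0.365 and 0.0595).

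Many lysosomal genes carry near their start site the CLEAR element, to which Tfeb and its relatives bind. Its core TCACGTGA, read on both strands (its reverse complement is the same), occurs in the 250 bases before the start site of 178 of the 10529 tested genes with a promoter in RefSeq (1.69%). Among risen members with a promoter in RefSeq, it was found for 1 of 4 V-ATPase subunits, 2 of 5 cathepsins and inhibitors and 2 of 20 hydrolases and membrane proteins. Among the members not called higher it was found for 0 of 8, 0 of 6 and 1 of 13. The promoters of Atp6v1a and Ctsd, each the risen member of its list with a match and the smallest adjusted p, are shown from RefSeq (build GRCm38.p6, whereas the deposited counts used mm9), with the core in capitals: Atp6v1a at chr16:44139260-44139509, minus strand, 132 bases before the start site, and Ctsd at chr7:142387828-142388077, minus strand, 99 bases before it. A match of letters does not show that a factor binds there.
Atp6v1a: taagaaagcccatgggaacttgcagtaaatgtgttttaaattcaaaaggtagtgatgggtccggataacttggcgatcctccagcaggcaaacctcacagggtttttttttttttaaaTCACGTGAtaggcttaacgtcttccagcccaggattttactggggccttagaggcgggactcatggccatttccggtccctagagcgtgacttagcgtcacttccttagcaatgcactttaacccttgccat
Ctsd: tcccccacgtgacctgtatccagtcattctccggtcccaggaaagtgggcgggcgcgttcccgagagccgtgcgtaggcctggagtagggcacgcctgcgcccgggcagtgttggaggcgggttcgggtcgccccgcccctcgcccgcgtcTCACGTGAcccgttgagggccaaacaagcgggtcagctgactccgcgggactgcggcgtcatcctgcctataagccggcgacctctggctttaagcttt

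Lipid genes outside the lysosome moved unevenly. Of 26 genes of lipid efflux, uptake and storage, 11 rose and 1 fell, with a median log2 change of 0.83, and 8 rose without NPC B and C. The fall, of Lpcat3, was not called without WT B or NPC D. Ch25h, which makes the oxysterol 25-hydroxycholesterol, was at 52, 47.7, 3.7 and 32.3 in WT and 508, 418, 498 and 320.3 in NPC (log2 change 4.09 ± 0.60, adjusted p = 1.27e-05). The fatty acid binding protein Fabp5 was at 28.1, 45, 35.5 and 34.5 in WT and 208, 470.2, 647 and 205 in NPC (log2 change 3.22 ± 0.45, adjusted p = 6.13e-06). Nceh1, which hydrolyses cholesteryl esters in the cytosol, was at 911, 1135, 979 and 1194 in WT and 3011, 4250.4, 3918 and 2714 in NPC (log2 change 1.70 ± 0.20, adjusted p = 4.65e-07). All NPC libraries were higher than all WT libraries for these 3 genes, and Fabp5 was highest in NPC B and C. The scavenger receptor Msr1 rose from 67.1, 70.2, 94.8 and 84.1 to 594, 624, 625 and 287 (log2 change 2.68 ± 0.33, adjusted p = 6.85e-07), the triglyceride enzyme Dgat2 from 253, 291, 259.9 and 311 to 1029, 1316, 817 and 955 (log2 change 1.86 ± 0.21, adjusted p = 1.85e-07), and lipoprotein lipase (Lpl) from 486, 552, 709 and 501 to 2036, 1672, 1707 and 1397 (log2 change 1.60 ± 0.30, adjusted p = 0.000261). The lipid droplet coat Plin2 rose by 0.90 on the log2 scale and Fabp3 by 3.04. Soat1, which esterifies cholesterol, rose by 0.81 (without NPC B and C, adjusted p = 0.062). The cholesterol exporters Abca1 and Abcg1, targets of the oxysterol receptor LXR, did not pass: Abca1 was at 6856, 5826, 14094 and 13052 in WT and 12346, 7109.6, 7386 and 14883 in NPC (log2 change 0.10 ± 0.36, adjusted p = 0.897), and the log2 change of Abcg1 was -0.35.

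Of 26 genes of sterol synthesis and uptake, 7 rose and 1 fell with all 8 libraries, and without NPC B and C 1 rose. That gene was Srebf2, the transcription factor of the sterol pathway, at 1169, 1148, 1348 and 1402 in WT and 2173, 2190.1, 2366 and 1999.9 in NPC (log2 change 0.79 ± 0.12, adjusted p = 1.44e-05). The synthesis enzymes Fdft1, Lss and Cyp51 had log2 changes of -0.08, 0.07 and 0.20, none called. Among 25 sphingolipid genes 3 rose and 2 fell (1 and 2 without NPC B and C), beside 8.76% and 6.5% of all genes. S1pr1, the receptor for sphingosine 1-phosphate, rose from 882, 1055, 635 and 964 to 5123, 7484, 7885 and 4633, 7.03-fold higher (95% interval 5.15 to 9.61) (log2 change 2.81 ± 0.22, adjusted p = 2.69e-10), with no overlap. Smpdl3b, a phosphodiesterase of the plasma membrane, fell from 1547, 1594, 1152 and 1284 to 583, 571, 649 and 501 (log2 change -1.27 ± 0.19, adjusted p = 1.96e-05).

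Interferon response genes had the highest median of the gene lists, markers of other cells aside. Of 41 genes 32 rose and 0 fell, with a median log2 change of 2.13, and 26 rose without NPC B and C. Ifit1, which binds foreign RNA, was at 49.8, 106, 153 and 99.2 in WT and 845, 740.4, 760.2 and 754 in NPC (log2 change 3.02 ± 0.34, adjusted p = 1.83e-07). Its relative Ifit2 was at 102, 283, 331 and 315 in WT and 2069.9, 2329, 2255 and 1939 in NPC (log2 change 3.19 ± 0.31, adjusted p = 1.34e-08). Irf7, the factor that amplifies the interferon response, was at 46.5, 375, 301 and 179 in WT and 1320.4, 1965, 1511 and 1267 in NPC (log2 change 3.08 ± 0.40, adjusted p = 1.88e-06). WT A was the lowest library for all 3 genes, and the 4 NPC libraries, including NPC A and D, lay well above the highest WT library. The oligoadenylate synthetases, which sense double-stranded RNA, rose: Oas3 from 5.41, 23.8, 4.44 and 6.47 to 149, 159, 187 and 141 (log2 change 4.15 ± 0.64, adjusted p = 2.39e-05), Oas2 by 3.77 on the log2 scale, Oasl1 by 3.81 and Oasl2 by 3.32. Oas1a and Oas1g rose by 3.33 and 4.89, but reads of these near copies may be split between them. The antiviral Rsad2 (viperin) rose by 3.46, Cmpk2 by 3.56, Slfn5 by 3.25, Zbp1 by 2.91, Ifitm3 by 2.90, Usp18 by 2.65, Rtp4 by 2.26, Isg15 by 2.16 and Bst2 by 1.18, all called with and without NPC B and C. Of the 9 members not called, Mx1 was at 17.3, 27.8, 141 and 47.4 in WT and 249, 82.8, 174 and 259.8 in NPC (log2 change 2.01 ± 0.71, adjusted p = 0.0552), and the RNA sensor Ddx58 (RIG-I) had a log2 change of 0.35.

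Interferon-stimulated response elements bind Stat2 complexes and the interferon regulatory factors. A core of this element, GAAANNGAA on either strand, was found in the 250 bases before the start site of 790 of 10529 tested genes (7.50%), of 14 of the 25 risen members of the list with a promoter in RefSeq (56%) and of 3 of the 6 members not called higher (50%). The promoters of Ifit1, with 3 matches between 109 and 84 bases before the start site (chr19:34640639-34640888, plus strand), and of Cxcl10, with 1 match 213 bases before it (chr5:92348890-92349139, minus strand), are shown as the 2 risen members with a match and the smallest adjusted p, from RefSeq GRCm38.p6 with matches in capitals.
Ifit1: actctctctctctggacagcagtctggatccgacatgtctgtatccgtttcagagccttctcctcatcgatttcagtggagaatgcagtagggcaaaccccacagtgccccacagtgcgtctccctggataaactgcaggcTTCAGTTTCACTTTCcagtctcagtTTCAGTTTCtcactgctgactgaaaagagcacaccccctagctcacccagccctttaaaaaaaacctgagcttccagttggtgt
Cxcl10: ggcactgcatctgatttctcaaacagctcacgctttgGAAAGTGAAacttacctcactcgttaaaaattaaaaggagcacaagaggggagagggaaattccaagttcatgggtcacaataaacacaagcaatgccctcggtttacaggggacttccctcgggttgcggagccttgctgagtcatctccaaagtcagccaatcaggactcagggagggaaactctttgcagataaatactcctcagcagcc

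Genes that load and carry peptides on MHC class I followed in part: 5 of 16 rose and 0 fell, with 3 rises and 1 fall without NPC B and C and 1 fall without WT C or without NPC B. H2-K1, a class I heavy chain, was at 7548, 11227, 8315 and 9789.7 in WT and 37047, 53705, 49965 and 23956 in NPC (log2 change 2.11 ± 0.23, adjusted p = 1.4e-07). H2-D1, another heavy chain, was at 4154, 5649, 3581 and 3751 in WT and 13562, 32052, 24798 and 10093 in NPC (log2 change 2.11 ± 0.33, adjusted p = 2.32e-05). NPC B and C were highest for both, and NPC D, the lowest NPC library, was above every WT library. H2-Q4 rose by 1.99 on the log2 scale, with the reserve that class I genes are close copies whose reads may be shared. The transporters Tap1 and Tap2 and the immunoproteasome subunits Psmb8, Psmb9 and Psmb10 were not called, with log2 changes from -0.33 (Tap2) to 0.42 (Psmb8). Of 13 MHC class II genes 1 rose and 3 fell (0 and 2 without NPC B and C), and 2 rose without WT B. Cd74, the invariant chain, was at 1365, 6145, 1573 and 2529.6 in WT and 4643, 6191, 5336 and 2261 in NPC, and the class II chain H2-Ab1 at 2687, 5664, 2221 and 3121 and 2944, 3333, 3623 and 1313. WT B stood above the other WT libraries for both, the groups overlapped, and neither passed the test (adjusted p = 0.222 and 0.655). Those that fell were H2-DMa, H2-DMb2 and H2-Ob, of which 1 was called without NPC D, and H2-DMb2 lost its call in 6 of the 8 omissions of 1 library. The co-stimulator Cd40 was not called as risen without WT A (adjusted p = 0.069).

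Several chemokine ligands rose and several of their receptors fell. Of 20 ligands 10 rose and 1 fell (2 without NPC A), with a median log2 change of 1.69, and 7 rose without NPC B and C. Cxcl10, which draws T cells through Cxcr3, was at 13, 92.7, 43 and 58.2 in WT and 467, 943, 673 and 579 in NPC (log2 change 3.91 ± 0.44, adjusted p = 2.01e-07). Ccl3, a ligand of Ccr1, was at 216, 355, 162 and 223 in WT and 1248, 1935, 1863 and 1014 in NPC (log2 change 2.66 ± 0.34, adjusted p = 1.88e-06), and its neighbour Ccl4 at 484, 486, 489 and 378 and 1620.4, 2795, 2849 and 1418 (log2 change 2.18 ± 0.29, adjusted p = 3.41e-06). NPC B and C were the highest libraries for all 3 and NPC A and D were above every WT library. Ccl2, the ligand that draws monocytes through Ccr2, rose from 47.6, 144, 39.3 and 47.4 to 279, 325, 378 and 227 (log2 change 2.29 ± 0.36, adjusted p = 2.72e-05), and Ccl5 and Cxcl16 rose by 3.46 and 1.13 on the log2 scale. Cxcl2 was at 0, 0, 0 and 2.16 in WT, under 3 reads in each library, and at 14, 78.2, 14.4 and 27.3 in NPC. Ccl24 (eotaxin-2), a ligand of Ccr3, fell from 369, 363, 296 and 299.6 to 74.7, 103, 128 and 142 (log2 change -1.59 ± 0.25, adjusted p = 2.43e-05). Ccl12 and Ccl7 rose by 1.74 and 2.34 and were not called without NPC B and C (adjusted p = 0.0525 and 0.0673).

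Of 15 chemokine receptors 7 fell and 3 rose, with a median log2 change of -0.82 (6 and 2 without NPC B and C). Ccr1 was at 1956, 2790.3, 2102 and 2285 in WT and 293, 207, 254 and 160.1 in NPC, 0.0989 times the WT level (95% interval 0.0673 to 0.145) (log2 change -3.34 ± 0.27, adjusted p = 5.67e-10). Ccr6, the receptor for Ccl20, was at 7095, 9360.1, 7150.4 and 6945 in WT and 3248, 3069.7, 3116 and 3677 in NPC (log2 change -1.21 ± 0.14, adjusted p = 4.19e-07). Each NPC library was lower than each WT library for both receptors. Ccr3 fell by 3.04 on the log2 scale. The receptors for Cxcl12 went the other way: Cxcr4 rose from 11.9, 7.95, 20.7 and 17.2 to 204, 179, 85.1 and 151 (log2 change 3.34 ± 0.49, adjusted p = 1.19e-05), and the scavenging receptor Ackr3 from 3.25, 53, 23.7 and 23.7 to 239, 282, 393 and 293 (log2 change 3.94 ± 0.49, adjusted p = 9.83e-07). WT and NPC libraries did not overlap for either, and NPC C was the lowest NPC library for Cxcr4.

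Cytokine genes gave a mixed picture, with 10 of 27 risen, 2 fallen and a median log2 change of 0.17 (7 and 0 without NPC B and C). The falls, of Nfkb1 and Il1a, numbered 1 without WT A, WT B, NPC A, NPC C or NPC D. Interleukin 1 beta (Il1b) was at 395, 516, 240.0 and 502 in WT and 1144, 1600.4, 1329 and 1126 in NPC (log2 change 1.70 ± 0.21, adjusted p = 1.31e-06), and its antagonist Il1rn at 54.1, 82.1, 36.3 and 35.6 and 653, 894, 910.1 and 316 (log2 change 3.68 ± 0.59, adjusted p = 3.5e-05). Tumour necrosis factor (Tnf) was at 115, 268, 48.9 and 92.7 in WT and 359.6, 533, 260.2 and 287 in NPC (log2 change 1.66 ± 0.36, adjusted p = 0.00141). WT B overlapped with NPC C for Tnf, while the groups did not overlap for Il1b and Il1rn. Tnfaip2, a gene induced by Tnf, rose from 892, 678, 522 and 936 to 2176, 3599.7, 2958 and 2017 (log2 change 1.82 ± 0.21, adjusted p = 3.65e-07), and the NF-kB subunit Nfkb2 from 1003, 1062, 957 and 859 to 1732, 1942, 1496 and 1546 (log2 change 0.79 ± 0.13, adjusted p = 4.03e-05). Interleukin 6 was at 33.6, 92.7, 62.2 and 32.3 in WT and 35, 43.7, 45.6 and 84 in NPC (log2 change -0.03 ± 0.39, adjusted p = 0.98), and the inflammasome sensor Nlrp3 had a log2 change of -0.58 (adjusted p = 0.126). Of 17 Toll-like receptors and adaptors 0 rose (1 without NPC D) and 5 fell, and 0 rose and 2 fell without NPC B and C. Tlr5, the receptor for flagellin, fell from 641, 716, 664 and 497 to 173, 151, 107 and 134 (log2 change -2.16 ± 0.26, adjusted p = 4.98e-07) and was called under every omission. The count of falls in that list was 1 without WT A, WT B or NPC D, 2 without WT D and 3 without NPC A, NPC B or NPC C.

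Inhibitory receptors split by member. Of 21 Siglecs and other inhibitory receptors 8 rose and 5 fell, and 6 and 5 without NPC B and C. Cd22 (Siglec-2), which binds sialic acid and damps phagocytosis, was at 312, 430.4, 293 and 414 in WT and 3735, 4565, 4125 and 2464 in NPC, 10.1-fold higher (95% interval 7.02 to 14.6) (log2 change 3.34 ± 0.26, adjusted p = 2.6e-10). Siglece, another inhibitory Siglec, was at 3417, 3299, 3109.7 and 3053 in WT and 1464, 1430.2, 1483 and 1264 in NPC (log2 change -1.19 ± 0.16, adjusted p = 3.41e-06). Both had no overlap, in opposite directions. Lilrb4 rose from 110.4, 156, 232 and 188 to 1576, 1938, 1369 and 888 (log2 change 3.06 ± 0.38, adjusted p = 1.01e-06), Cd300lf, a receptor for sphingomyelin and phosphatidylserine, from 192, 303, 572 and 304 to 1336, 1531, 993 and 1566 (log2 change 2.07 ± 0.30, adjusted p = 1.17e-05), and Pirb by 1.24 on the log2 scale. Clec4a2 fell from 2430.2, 2615, 1899 and 2215 to 1090.4, 924, 1052 and 1093 (log2 change -1.13 ± 0.16, adjusted p = 7.81e-06), and Cd200r1, the receptor by which neurons restrain microglia, from 1651, 1865, 1072 and 1199 to 844, 682, 805 and 793 (log2 change -0.86 ± 0.15, adjusted p = 0.000139). Lair1 and Siglech fell by 0.57 and 0.58. Siglec1 was not called as risen without WT B (adjusted p = 0.0622).

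Of 19 complement genes 8 rose and 0 fell, and 5 rose without NPC B and C. C3, the central component, was at 62.8, 109, 69.6 and 101 in WT and 1101, 1105, 679.8 and 527 in NPC (log2 change 3.27 ± 0.60, adjusted p = 0.000264). The receptor C3ar1 was at 13419, 13512, 11378 and 13852 in WT and 22373, 25752, 26375 and 18837 in NPC (log2 change 0.83 ± 0.14, adjusted p = 0.000106), and Cd59a, which blocks the terminal complex, at 47.6, 25.2, 64.4 and 48.5 and 127, 270.2, 231 and 150.4 (log2 change 2.05 ± 0.31, adjusted p = 1.59e-05). The groups were separate for these genes. C1qa, the first chain of C1q, was at 117786, 128641, 94746 and 122482 in WT and 128778, 184148, 195946 and 119639 in NPC, with overlap (log2 change 0.41 ± 0.20, adjusted p = 0.157). C1qb was called with all 8 libraries (log2 change 0.56, adjusted p = 0.0168) but not without WT C, NPC B or NPC C (adjusted p = 0.0764, 0.0867 and 0.0886). Of 8 Fc receptors 2 rose (Fcgr4 and Fcrls) and 1 fell (Fcgr1), and none of these calls was kept under every omission. The rises numbered 1 without WT A, WT C, WT D or NPC B and 0 without NPC C, and the fall was not called without WT A, WT B, WT D, NPC A or NPC D. Without NPC B and C the list had 0 rises and 1 fall.

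Many genes of cell division rose and none of the replication and mitosis lists fell. Of 39 DNA replication genes 17 rose and 0 fell, with a median log2 change of 0.54. Of 33 genes of mitosis and cytokinesis 21 rose and 0 fell, with a median of 1.10. Without NPC B and C the rises numbered 13 and 15. Among subunits of the MCM helicase, which unwinds DNA, Mcm2 was at 697, 755, 793 and 779 in WT and 1651, 1731, 1565 and 1499.9 in NPC (log2 change 1.09 ± 0.13, adjusted p = 8.3e-07). Mcm6 was at 475, 462, 257 and 522 in WT and 1239, 1201, 1257 and 834 in NPC (log2 change 1.43 ± 0.19, adjusted p = 3.54e-06), and Mcm5 at 742, 716, 735 and 820.2 and 1500.2, 1738, 1408 and 1554 (log2 change 1.04 ± 0.15, adjusted p = 8.26e-06). All NPC libraries were higher than all WT libraries, and Mcm3 and Mcm7 rose by 0.80 and 0.57 on the log2 scale. Uhrf1, which copies DNA methylation after replication, rose from 124, 204, 138 and 126 to 741, 519.7, 769 and 619 (log2 change 2.17 ± 0.21, adjusted p = 2.11e-08). The cell cycle factor E2f1 rose from 185, 148, 198 and 102 to 474, 671, 815 and 480.4 (log2 change 1.95 ± 0.29, adjusted p = 1.47e-05), Cdc6, which licenses origins, from 24.9, 11.9, 18.5 and 20.5 to 124, 34.5, 36 and 159 (log2 change 1.89 ± 0.46, adjusted p = 0.00447). Cdc6 was highest in NPC A and D, and its log2 change without NPC B and C was 2.87. Ribonucleotide reductase Rrm2, thymidine kinase Tk1 and DNA ligase Lig1 rose by 1.15, 1.06 and 1.10.

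Among genes of mitosis, the chromosome passenger kinase Aurkb was at 77.9, 94, 80.7 and 58.2 in WT and 287, 201, 269.8 and 271 in NPC (log2 change 1.72 ± 0.28, adjusted p = 4.2e-05). The checkpoint kinase Bub1b was at 83.4, 98, 54.8 and 43.1 in WT and 281, 163, 181 and 271 in NPC (log2 change 1.70 ± 0.35, adjusted p = 0.000981), and the kinesin Kif2c at 145, 122, 133 and 125 and 425, 359, 247 and 400.4 (log2 change 1.41 ± 0.19, adjusted p = 3.35e-06). The groups did not overlap for these 3 genes. Ccnb1 and Ccnb2, the B cyclins that drive entry into mitosis, rose by 1.25 and 1.65 on the log2 scale, Bub1 by 1.69, Birc5 by 1.31, Tpx2 by 1.31 and Nuf2 by 1.30. The proliferation marker Mki67 was at 74.7, 135, 88.1 and 151 in WT and 223, 90.8, 170.3 and 418 in NPC, with NPC B inside the WT range (log2 change 0.85 ± 0.40, adjusted p = 0.155), and topoisomerase Top2a at 233, 149.6, 149.6 and 197 and 537, 216, 312 and 632 (log2 change 1.11 ± 0.44, adjusted p = 0.0848). Neither was called with all 8 libraries, and both were called without NPC B and C (log2 changes 1.50 and 1.70, adjusted p = 0.0394 and 0.0467). D and E cyclins, their kinases and inhibitors were 18 genes with a median log2 change of 0.03. Of these 2 rose and 3 fell, beside 8.76% and 6.5% of all genes. Without NPC B and C 1 rose and 1 fell, and 1 fell without WT B.

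E2F factors switch on replication genes through a promoter site written here as TTTGGCGC and read on both strands. It was found in a promoter of 100 of 10529 tested genes (0.95%), of 2 of 15 risen DNA replication genes (Mcm5 and Mcm6) and of 1 of 16 not called higher (Pola1). Among mitosis genes it was found for 0 of 18 risen and 0 of 10 other members. The Mcm6 promoter (chr1:128359706-128359955, minus strand, RefSeq GRCm38.p6), with matches 110 and 47 bases before the start site in capitals, is shown as the risen replication gene with a match and the smallest adjusted p.
Mcm6: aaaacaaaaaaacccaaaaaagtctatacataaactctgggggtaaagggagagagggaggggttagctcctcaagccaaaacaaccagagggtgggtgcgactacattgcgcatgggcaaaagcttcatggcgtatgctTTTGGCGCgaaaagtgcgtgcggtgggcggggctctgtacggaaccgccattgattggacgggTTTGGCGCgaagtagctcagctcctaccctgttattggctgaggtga

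Glycolytic genes rose at several steps: 10 of 19 rose and 0 fell, with a median log2 change of 0.71, and 6 rose without NPC B and C. Pyruvate kinase (Pkm), the last step, was at 11376, 11725, 9362 and 9862 in WT and 25378, 33856, 35460.0 and 23358 in NPC (log2 change 1.46 ± 0.13, adjusted p = 3.64e-09). Gapdh, in the middle of the pathway, was at 5103, 5729, 4099 and 5126 in WT and 10320.1, 14479, 14551 and 10659 in NPC (log2 change 1.31 ± 0.15, adjusted p = 2.39e-07), and triose phosphate isomerase (Tpi1) at 3789.8, 4248, 3106 and 3499.6 and 7749, 9533, 11254 and 8214 (log2 change 1.32 ± 0.15, adjusted p = 2.94e-07). NPC B and C held the highest values for Pkm and Gapdh, and NPC A and D still exceeded every WT library. Aldolase (Aldoa), Gpi1 and Pfkl rose by 1.15, 0.65 and 0.59 on the log2 scale. Lactate dehydrogenase (Ldha) and Pgk1 rose by 0.87 and 1.06 and were not called without NPC B and C (adjusted p = 0.0588 and 0.082). The glucose transporter Slc2a1 and hexokinase Hk2, at the entry of the pathway, were not called (log2 changes 0.17 and 0.20). Of 9 pentose phosphate genes 4 rose, but 1 to 2 did when WT A, WT C, WT D, NPC B or NPC C was left out, and Prps2 was the member that rose without NPC B and C (log2 change 0.51 ± 0.14, adjusted p = 0.00945).

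Genes of serine and asparagine synthesis rose within the amino acid stress list, in which 7 of 22 genes rose and 1 fell (4 and 0 without NPC B and C). The fall, of Sesn2, was not called without WT B, WT C, WT D, NPC B or NPC C. Psat1, a transaminase of serine synthesis, was at 253, 287, 202 and 329 in WT and 1659, 2878, 2576 and 1559.5 in NPC (log2 change 2.98 ± 0.27, adjusted p = 4.9e-09). Phgdh, which starts that pathway, was at 240.3, 238, 118 and 218 in WT and 542, 921, 812 and 388 in NPC (log2 change 1.68 ± 0.31, adjusted p = 0.000248), and asparagine synthetase (Asns) at 17.3, 15.9, 4.44 and 15.1 and 70.0, 118, 157 and 67.4 (log2 change 2.93 ± 0.46, adjusted p = 2.64e-05). Each was lowest in NPC D within the NPC group, and NPC D lay above every WT library. The factor of this response, Atf4, was at 2032, 2279, 2236 and 2526 in WT and 1856, 1335, 1357 and 2283 in NPC, with overlap (log2 change -0.44 ± 0.16, adjusted p = 0.0548), and its targets Ddit3 and Slc7a11 had log2 changes of -0.31 and -0.75. Of 16 iron genes 4 rose and 2 fell (4 and 1 without NPC B and C), the fall of Ncoa4 not being called without any 1 library other than WT C. The ferritin chains rose, Ftl1 from 39795, 38224, 26441 and 34136 to 72549, 131915, 129473 and 71005 (log2 change 1.50 ± 0.25, adjusted p = 6.08e-05) and Fth1 from 18153, 19295, 14088 and 18157 to 38187, 65234, 65217 and 31659 (log2 change 1.46 ± 0.24, adjusted p = 6.64e-05), NPC B and C being highest. Heme oxygenase (Hmox1) rose from 1801, 1804, 1630.0 and 1688 to 3616, 2841, 2917 and 3084 (log2 change 0.84 ± 0.17, adjusted p = 0.000672) and the iron transporter Slc11a2 by 0.76, while Hfe, a regulator of iron uptake, fell by 0.64.

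Immediate early genes, which also respond to the handling of cells, gave 4 rises and 4 falls among 21, with a median log2 change of -0.10, or 1 rise and 1 fall without NPC B and C. Nr4a1, an orphan nuclear receptor, rose from 133, 92.7, 156 and 85.1 to 391, 340.3, 333 and 348 (log2 change 1.63 ± 0.29, adjusted p = 0.000179), and the antiproliferative Btg2 fell from 10879, 9636, 9173 and 9199 to 5542, 4011, 4534 and 4876 (log2 change -1.04 ± 0.22, adjusted p = 0.00117). Fos, Jun and the heat shock gene Hspa1a were not called (adjusted p = 0.12, 0.908 and 0.26). The falls numbered 2 without WT A, NPC B or NPC C.

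Matrix genes were called in both directions: of 25, 9 rose and 7 fell (8 and 5 without NPC B and C). Beside Hpse, Lox and Spp1, the elastase Mmp12 rose from 77.9, 159, 127 and 185 to 877, 1012, 1037 and 363 (log2 change 2.53 ± 0.38, adjusted p = 1.47e-05), the urokinase receptor Plaur from 181, 241, 192 and 162 to 821, 1456, 1263 and 587 (log2 change 2.33 ± 0.28, adjusted p = 7.22e-07), and the protease inhibitor Timp2 from 28293, 18033, 22999.8 and 27124 to 53671, 66362, 63963 and 45375 (log2 change 1.25 ± 0.13, adjusted p = 7.97e-08). The groups did not overlap for these genes, of which Mmp12 was lowest in NPC D. Fibronectin (Fn1) rose from 15.2, 46.4, 21.5 and 16.2 to 506, 115, 133 and 239 (log2 change 3.16 ± 0.66, adjusted p = 0.0011), highest in NPC A and D. Falls were seen for the proteases Htra3, from 1477, 1271, 1075 and 1282 to 344, 494, 243 and 215 (log2 change -2.04 ± 0.23, adjusted p = 2.76e-07), Mmp14, from 842, 1104, 915 and 1356 to 435, 653, 282 and 265 (log2 change -1.44 ± 0.30, adjusted p = 0.00113), and Mmp2, from 5769, 5799, 5161 and 5421 to 2734, 2955, 3564 and 2471 (log2 change -0.93 ± 0.11, adjusted p = 4.29e-07). Mmp14 is known as the activator of Mmp2.

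Of 16 ion channels 3 rose and 0 fell, beside 8.76% and 6.5% of all genes, with all 3 kept without NPC B and C. Kcnj10, an inward rectifier potassium channel best known from astrocytes, was at 416, 393, 541 and 717 in WT and 2368, 2478, 2290.1 and 2016 in NPC (log2 change 2.18 ± 0.21, adjusted p = 1.23e-08). All NPC libraries were higher than all WT libraries, and the part of astrocyte RNA in this rise was not tested. Trpv4, a calcium-permeable channel, was at 21.6, 50.3, 20.0 and 46.3 and 308, 258, 433 and 158 (log2 change 3.06 ± 0.46, adjusted p = 1.61e-05), and Clcn7, the chloride-proton exchanger of lysosomes, at 5173, 4869, 5137 and 5342 and 7282, 7479.8, 7518 and 7095 (log2 change 0.52 ± 0.10, adjusted p = 0.000781). Of 24 integrins and tetraspanins 5 rose and 4 fell, and 2 and 1 without NPC B and C. The 2 were Itgax and Cd63, and the fall was that of the tetraspanin Cd37, from 11670.3, 12384, 11084 and 11784 to 8201, 9376, 9499.9 and 9343 (log2 change -0.37 ± 0.10, adjusted p = 0.0077). The integrin chain Itgb2, partner of CD11b and CD11c, was not called (log2 change 0.19 ± 0.13, adjusted p = 0.364), and the falls numbered 1 to 2 without WT A, WT C, WT D, NPC A, NPC B or NPC C.

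The difference at 6 weeks was set beside those at 3 and 9 weeks, which share no library with it. At 3 weeks 2006 genes rose (14.3%) and 1771 fell (12.6%), and at 9 weeks 1574 rose (11.2%) and 1091 fell (7.77%). Of the 2143 genes called at 6 weeks, 1354 (63.2%) were called in the same direction at 3 weeks, which is 35.8% of the calls there, and 1494 (69.7%) at 9 weeks, which is 56.1% of the calls there. In neither case was a gene called in the opposite direction. RNA of other cells was also higher in NPC at those ages. Of 7 choroid plexus markers 4 rose at 3 weeks (median log2 change 2.20) and 6 at 9 weeks (3.47). The astrocyte medians were 1.18 and 1.59. The part of such RNA in the genes shared between ages was not tested. A total of 366 genes were called at 6 weeks and at none of the other 3 ages, which does not show that they differ there. The test of the difference itself called no gene: limma called 0 genes higher and 0 lower (0%) for the 6-week minus the 3-week difference, with 1237 at an unadjusted p under 0.05 and a smallest adjusted p of 0.564, and edgeR on the recovered reads also called 0, with 1388 at an unadjusted p under 0.05. For the 9-week minus the 6-week difference limma called 0 genes higher and 0 lower (0%), with 628 at an unadjusted p under 0.05 and a smallest adjusted p of 0.136, and edgeR called 0, with 616. Without NPC B and C, Cdc6 was called for the 6-week minus the 3-week difference (log2 3.56, adjusted p = 0.0448). Without NPC replicate B at 9 weeks, Hk3 and Gal3st4, named here after their values were seen, were called lower for the 9-week minus the 6-week difference.

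**Figure D5:**
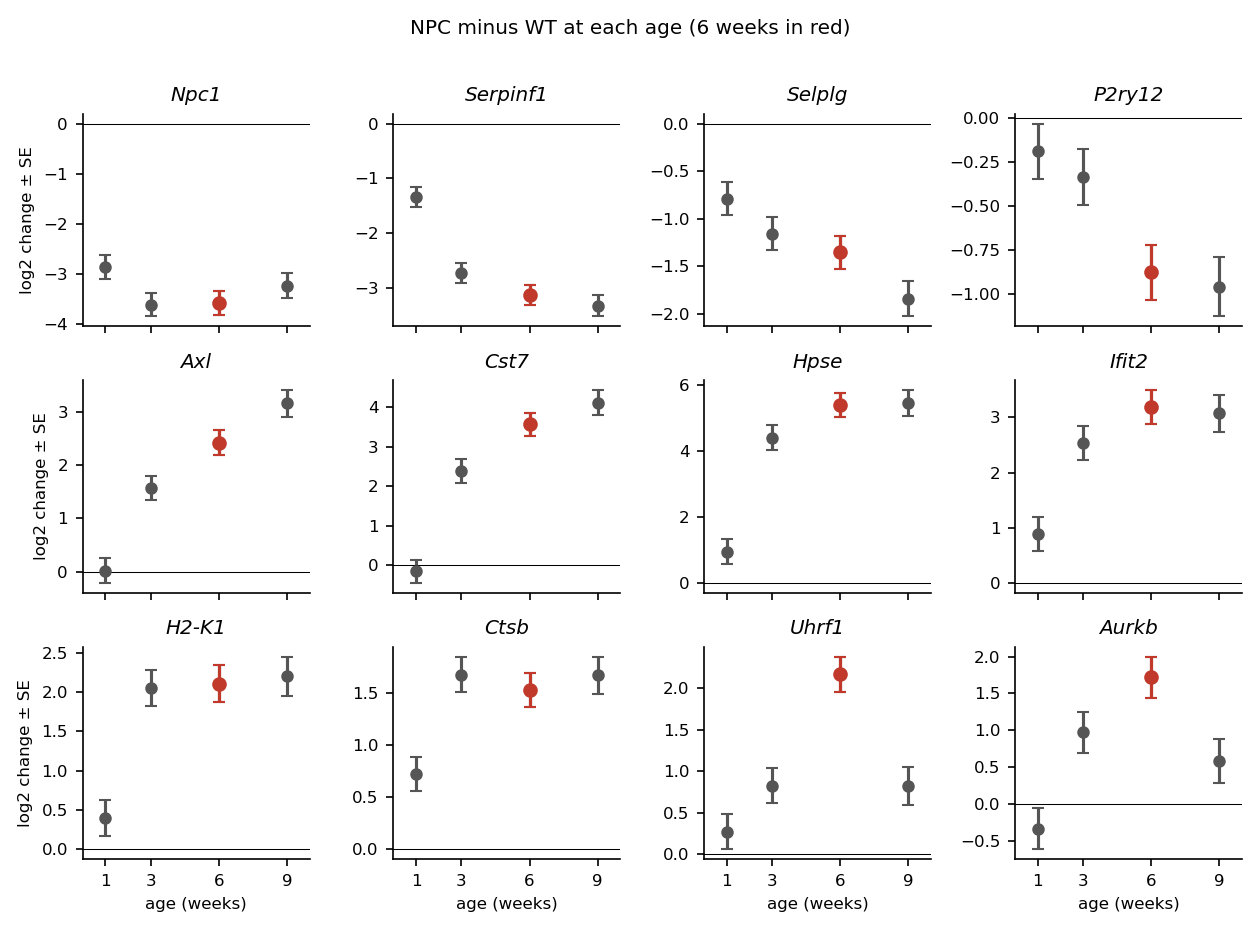
Log2 change (NPC minus WT, ± SE) of 12 genes at 1, 3, 6 and 9 weeks, with the 6-week value in red and a line at 0. Npc1 is lower at every age, Hpse stands at 0.95 at 1 week and 5.44 at 9 weeks, and Uhrf1 stands at 2.17 at 6 weeks against 0.83 and 0.82 at 3 and 9 weeks.

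Counts of risen cell division genes differed between ages, though no gene passed the test of the difference. Uhrf1 had log2 changes of 0.27, 0.83, 2.17 and 0.82 at 1, 3, 6 and 9 weeks, and its 6-week minus 3-week difference was 1.34 ± 0.30 (SE; adjusted p = 0.564). Aurkb stood at -0.34, 0.97, 1.72 and 0.58. Of the 33 mitosis genes 16 rose at 3 weeks, 21 at 6 weeks and 1 at 9 weeks, with median log2 changes of 0.78, 1.10 and 0.12. Of the 39 replication genes 14, 17 and 9 rose, with medians of 0.34, 0.54 and 0.42. The 9-week comparison has 7 libraries and those at 3 and 6 weeks have 8, which also bears on the counts. Disease-associated genes numbered 31, 35 and 34 of 40 risen at those ages and interferon genes 30, 32 and 29 of 41. Homeostatic genes that fell numbered 14, 16 and 18 of 28. Cst7 had log2 changes of -0.15, 2.39, 3.58 and 4.12 and Axl of 0.02, 1.57, 2.42 and 3.15 at the 4 ages. Serpinf1 stood at -1.35, -2.74, -3.13 and -3.33, Selplg at -0.79, -1.16, -1.35 and -1.84, and Ifit2 at 0.88, 2.54, 3.19 and 3.07. None of these genes passed the test of a difference from 3 to 6 or from 6 to 9 weeks.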

How the data were processed

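Polyadenylated RNA of sorted cerebellar microglia was measured by RNA-seq of mice in groups by genotype and age. The authors deposited 1 table of normalized counts, a signal for which each library's gene counts had been divided by its own size factor. Per the submitters' processing notes, FastQC 0.11.4, STAR 2.5.1b and DESeq2 were used with build mm9; the gene annotation and the counting tool are not given in the sources used here. Strandedness of the counting is not given either, so reads of a gene and of an overlapping antisense gene cannot be told apart, and near-identical gene copies may share reads. Whole reads were recovered from the steps of the values: 100% of the values of each library were whole multiples of 1 step within a tolerance of 1e-06. Columns not used: 0. The table names 24015 genes, 5501 of them at 0 in all 41 libraries; GENCODE holds 22709 of these names and RefSeq 22508. Reads carry no molecular identifiers, so depth bounds counting error only, and an amount of 3 reads corresponded to 2.22 to 3.97 normalized counts in the 8 libraries.

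Values were analysed as log2(value + 1), a scale that understates changes of low genes, with R 4.3.3 and limma 3.58.1 (group means, two-sided moderated test, trend and robust set), in 1 fit of the 31 libraries of WT and NPC mice at 1, 3, 6 and 9 weeks with 23 residual degrees of freedom. A gene was tested where 3 or more of these libraries reached 10 normalized counts. p-values were adjusted by Benjamini-Hochberg over all 14046 genes, called at 0.05, and measure the spread between mice pooled over these groups. The 2 differences between ages were contrasts of the same fit. No gene set was tested: lists are described by counts and medians beside those of all genes. The procedure was tested on simulated reads drawn from the means, depths and dispersions of the real libraries.

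Replicate letters were not treated as pairs in the fit reported. Deviations from the group means, in WT and NPC pairs of like letter, correlated at r = -0.089, 0.056, -0.215 and -0.054 for A to D. With 4 libraries a group, these correlations cannot show whether libraries were handled in pairs. Pairs of unlike letter ranged from -0.236 (WT C with NPC B) to 0.318 (WT C with NPC D). Named genes are the 12 largest rises and 12 largest falls among called genes with a mean of at least 100 in the higher group, no overlap and a symbol that is not a clone or predicted name, up to 6 and 6 for each difference between ages, and members of the gene lists. The libraries compared and the gene lists were chosen with earlier results of these data known. Alternatives were the pseudocount, the filter, rescaling, quantile normalization, array weights, a replicate block, a fit of the 8 libraries, leaving out libraries, and tests of the recovered reads with edgeR 4.0.16 or DESeq2 1.42.0; edgeR for the differences between ages was added after seeing the data. Promoters are from a RefSeq table (GRCm38.p6), matched by symbol for 10529 tested genes. Some list members are not reported by name here.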

Additional observations from a re-analysis of the deposited data

Results flagged for a closer look

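Single libraries that stood apart within their group of 4 are listed here for the genes and marker sums named above. A library is listed where its gap to the nearest of the other 3 divided by the range of the group, on the log2(value + 1) scale, exceeds Dixon's 95% critical value, which chance alone meets in about 1 in 20 groups. Of the 580 groups examined, 40 (6.9%) met it, 11 of them through WT C and 7 through NPC D. Values are normalized counts, with the range of the other 3 libraries of the group in brackets.

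WT A was low for C2 at 4.33 (23 to 30.5), Cmpk2 at 20.6 (72.2 to 83.4), Fos at 49.8 (86.1 to 94.8) and Ifit2 at 102 (283 to 331). It was low too for Slfn5 at 28.1 (74.1 to 83). WT B was high for Ccl2 at 144 (39.3 to 47.6), Ccr6 at 9360 (6945 to 7150.4), Il2rg at 375 (142 to 158) and Lgals3 at 245 (177 to 179.7). WT C was low for Asns at 4.44 (15.1 to 17.3), C3ar1 at 11378 (13418 to 13852), Csf1r at 638110 (746015 to 748329) and Gpr165 at 14245 (15726 to 15989). It was low too for Gpr56 at 69771 (78295 to 79958), Il10ra at 40065 (46137 to 46905), Itgb2 at 19460 (23994 to 24751) and Lipa at 6351 (8278 to 8561). It was low too for Phgdh at 118 (218 to 240.3), Pla2g15 at 39942 (51242 to 53578) and Smpd1 at 3225 (4603 to 4922). WT D was low for Ccl4 at 378 (484 to 489). WT D was high for Chst2 at 260 (106 to 115), Cxcl2 at 2.16 (0 in the others) and Cxcr3 at 52.8 (20.6 to 23.8). NPC A was low for Cd37 at 8201 (9343 to 9499.9), Cx3cr1 at 77123 (85272 to 86227) and Ecscr at 3889 (4635 to 4798). NPC A was high for Neu1 at 4478 (4251 to 4287). NPC B was low for Pola1 at 80.5 (147 to 159). NPC B was high for Ccl7 at 93.1 (50.4 to 52.5), Selplg at 109310 (104312 to 104779) and Serpinb1c at 339 (230.0 to 236). NPC C was low for Tpx2 at 152 (245 to 257). NPC D was low for Bub1 at 99.6 (149.9 to 159.9), Csf1r at 553735 (603007 to 611504), Mcm6 at 834 (1201 to 1257) and Mmp12 at 363 (877 to 1037). It was low too for Msr1 at 287 (594 to 625), Pparg at 7.81 (29.2 to 31.2) and Tmem119 at 161398 (169266 to 170320.0).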

How the results depend on the processing

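Counts at 6 weeks kept their size within 1.5 times under another pseudocount (10), no filter or a filter of 50, rescaling to the same total, quantile normalization, a fit of the 8 libraries alone, edgeR and DESeq2, with exceptions as follows. Without NPC B and C the rises numbered 522 and the falls 350, and array weights gave 1396 falls. With the replicate block in the fit of the 8 libraries the rises numbered 726 and the falls 461. Whether the letters mark libraries handled together is not known. Leaving out each library in turn gave 880 (without NPC B) to 1351 (without NPC D) rises and 626 (without NPC C) to 1021 falls. Calls shared with limma in the same direction numbered 2001 for edgeR and 2102 for DESeq2. The median log2 change over all genes was -0.06 after rescaling and after quantile normalization, and 50.6% (array weights) to 61.4% of calls were rises, against 57.4% in the fit reported. The 6-week minus 3-week difference gave 1 call without NPC B and C, and the 9-week minus 6-week difference 1 fall after rescaling (Olfml3, named after its value was seen) and 0 to 2 falls when single libraries were left out. The cause of these shifts was not tested, beyond the smaller numbers of libraries and genes that enter some of the fits.

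Npc1 was called lower under every alternative run, with log2 changes from -3.77 to -3.08. Of the 227 other called genes named in the text, 178 were called under every alternative, the replicate block included, 207 under every omission of 1 library and 191 without NPC B and C; none changed direction past the threshold. Depth limits the genes near 3 reads in WT, such as Pparg, Cxcl2 and Serpinb1c, whose fold changes depend on the pseudocount. A gene not called in a test of a difference between ages, which rests on 3 or 4 libraries a group, is not shown to be equal.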
